A study of Mus musculus with 8 samples.

Results

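Interferon signals enter a cell through a small set of receptor chains and their kinases. The genes followed here are Ifnar1, Ifnar2, Ifngr1, Ifngr2, Ifnlr1, Il10rb, Jak1, Tyk2 and Socs1, and they were taken from the count table by their symbols as a set defined by role. All 9 were found among the 27179 entries of the table, and all 9 passed the filter on low counts, as did 13495 genes in all. RNA was sequenced from cells sorted for the epithelial surface protein EpCAM out of antral gastric tumors, with 1 library per mouse. The labels give 4 mice as Yap1WT and 4 as Yap1 flox/flox, both on gp130FF, and the latter are called Yap1KO here. All 8 mice carry the gp130FF mutation of the shared IL-6 family receptor, which leads to gastric tumors, and the labels give for all of them an age of 18 weeks and an interval of 3 days after tamoxifen. The labels thus give floxed alleles to Yap1KO only and tamoxifen to both groups. The study's methods instead describe the Tff1:CreERT2 transgene and floxed Yap1 alleles in both groups, with tamoxifen in Yap1KO and vehicle in Yap1WT. Its results text gives an older age. Cre is driven by the Tff1 promoter of surface mucous (foveolar) cells and removes 1 exon of Yap1, so EpCAM+ cells in which that promoter is silent keep the gene. From Tff1 expression in gp130FF tumors, the study infers that deletion also reached tumor epithelial, chief, parietal, mucous neck, neuroendocrine and tuft cells. Effects of tamoxifen itself cannot be told apart from those of the genotype if the groups received different treatments.

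Type I interferons bind a receptor made of IFNAR1 and IFNAR2, interferon gamma binds IFNGR1 and IFNGR2, and the epithelial type III interferons bind IFNLR1 together with IL10RB, a chain that is also part of the receptors for IL-10 and IL-22. The kinases TYK2 and JAK1 sit on the type I and III receptors and JAK1 and JAK2 on the interferon gamma receptor, where they phosphorylate transcription factors of the STAT family. Phosphorylated STAT complexes bind the interferon-stimulated response element (ISRE) or the gamma-activated site (GAS) of target genes, and SOCS1 is an induced inhibitor that blocks the kinases.

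In Yap1KO, 1 receptor gene rose and another fell at an adjusted p under 0.05 by edgeR. Of all 13495 genes tested, 5.88% were called in either direction. With each of the 8 libraries left out in turn, Ifnar2 was called in 4 fits and Ifngr1 in 2. Ifnar2, the type I receptor chain that carries JAK1, was 1.67-fold higher, and Ifngr1, the ligand-binding chain of the interferon gamma receptor, was 1.28-fold lower. The other 7 genes did not pass the test, and for Jak1, Tyk2, Il10rb and Ifngr2 the 95% intervals of the log2 fold change lay within -0.40 to 0.41. Among genes listed by role, Stat2, Irf9 and 25 of 28 type I and III response genes were higher in the same libraries, beside 3.54% of all genes tested. The lists were chosen with earlier results of these data known. Almost no interferon ligand transcript was counted.

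Of the members, 4 are neighbours. Ifnar2, Il10rb, Ifnar1 and Ifngr2 lie in this order and on the plus strand within 191225 bp of chromosome 16 (GRCm38.p6 RefSeq, 91372783 to 91564007), and 567 bp separate the end of Ifnar2 from the start of Il10rb. Socs1 lies elsewhere on chromosome 16 (10783808 to 10785536, minus strand) and Ifngr1 on chromosome 10 (19591949 to 19610229, plus strand). Ifnlr1 (135686457 to 135708181, plus strand) and Jak1 (101151974 to 101265282, minus strand) are both on chromosome 4, and Tyk2 is on chromosome 9 (21104068 to 21131393, minus strand). GENCODE places a transcript, Gm21970, across Ifnar2 and Il10rb on the same strand that shares 315 exon bases with Ifnar2 and 569 with Il10rb, and an antisense gene, 1700084C06Rik, that shares 554 with Tyk2. The libraries do not mark strand and neither gene was analysed here, so their reads cannot be told apart from those of the members. A gene count also sums all forms of a transcript, including forms of Ifnar2 that encode a soluble receptor.

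Promoter sequences are shown for the 2 genes that changed and for Socs1, the single member with an ISRE match, so that the elements that interferon signalling itself uses can be seen beside the values. Each is the 250 bases before the RefSeq start site in GRCm38.p6, 5′ to 3′ along the gene's strand, and capitals mark a match to the ISRE (GAAA, any 2 bases and GAAA again) or GAS (TTCNNNGAA), searched on both strands. The windows are chr16:91372533-91372782 on the plus strand for Ifnar2, chr10:19591699-19591948 on the plus strand for Ifngr1 and chr16:10785537-10785786 on the minus strand for Socs1.
Ifnar2: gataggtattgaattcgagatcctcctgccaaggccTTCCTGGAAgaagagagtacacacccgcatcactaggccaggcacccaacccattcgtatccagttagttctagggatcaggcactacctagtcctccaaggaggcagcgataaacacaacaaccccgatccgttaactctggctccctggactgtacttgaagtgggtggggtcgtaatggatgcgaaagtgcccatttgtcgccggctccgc
Ifngr1: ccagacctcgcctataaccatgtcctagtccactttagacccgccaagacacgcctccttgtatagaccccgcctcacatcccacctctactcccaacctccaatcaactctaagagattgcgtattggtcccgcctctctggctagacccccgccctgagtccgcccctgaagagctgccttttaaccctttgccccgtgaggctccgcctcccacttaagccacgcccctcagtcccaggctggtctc
Socs1: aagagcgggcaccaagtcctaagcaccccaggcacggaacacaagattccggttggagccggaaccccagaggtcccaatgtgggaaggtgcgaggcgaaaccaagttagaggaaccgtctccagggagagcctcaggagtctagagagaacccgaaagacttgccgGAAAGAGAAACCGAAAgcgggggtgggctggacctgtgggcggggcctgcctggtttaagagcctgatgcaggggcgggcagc
In the Ifnar2 window the letters TTCCTGGAA stand 214 to 206 bases before the start site and match the GAS. In the Ifngr1 window neither pattern was found. The Socs1 window holds GAAAGAGAAA and GAAACCGAAA, 2 ISRE matches that overlap each other, at 83 to 74 and 77 to 68 bases before the start. Full windows of 300 bases (250 before and 50 after the start) were available for 8 of the 9 members, but not for Il10rb. Over these, Ifnar1 also held a GAS match, TTCACGGAA, across the start site of its window. That site lies downstream of the RefSeq start of the Ifnar1 gene at 91485032, which itself falls within the window (91484965 to 91485264). An ISRE match was found in 3.44% of all 32851 windows and a GAS match in 8.30%. A match of letters is a description and does not show that a factor binds there.

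The level of each gene was compared per gene length, on the deposited log2 RPKM scale, as the mean over all 8 libraries. Ifngr1 was the most abundant member at 5.79, above 90.5% of the genes listed, followed by Ifngr2 at 5.48, Il10rb at 5.42 and Jak1 at 5.09. Tyk2 followed at 3.33, Ifnar2 at 2.64, Ifnar1 at 2.63, Ifnlr1 at 2.01 and Socs1 at 1.65, the last above 30.5% of genes. The interferon gamma receptor chains and the shared chain Il10rb were thus each more than 2 units above both type I chains and the type III chain. Within Yap1WT, the ranges of neighbours in this order overlapped for Ifngr2 and Il10rb, for the pair of type I chains, and for Ifnar2 and Ifnlr1. In Yap1KO the first 4 genes formed an overlapping chain, with Il10rb at 5.46 ± 0.13 beside Ifngr2 at 5.45 ± 0.27 (SD, n = 4), and Ifnlr1 overlapped Socs1.

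**Figure D1:**
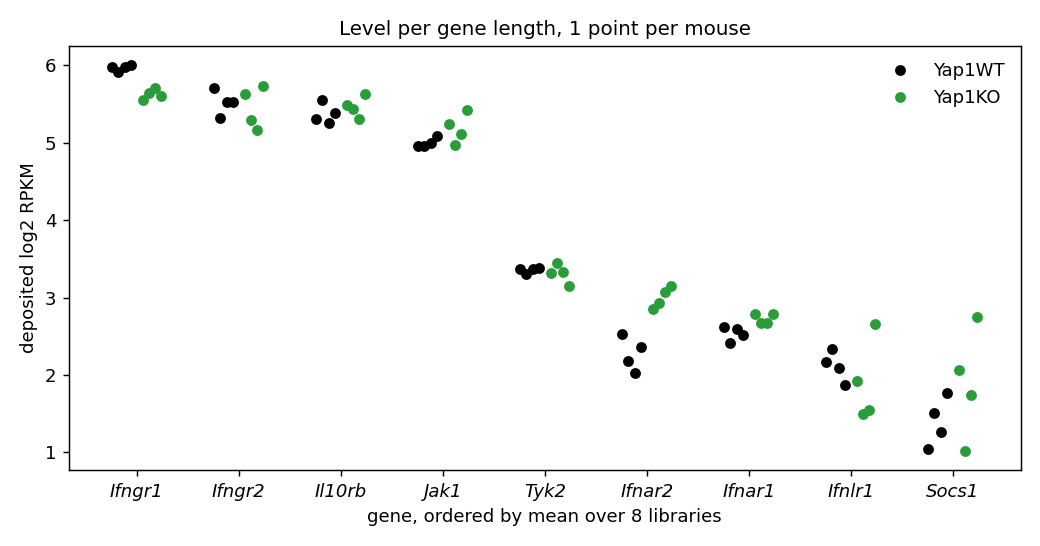
Deposited log2 RPKM (y axis) of the 9 genes, ordered on the x axis by their mean over 8 libraries, with 1 point per mouse, Yap1WT in black and Yap1KO in green. Ifngr1, Ifngr2, Il10rb and Jak1 lie at 4.95 or above in every mouse, and the Yap1KO points of Ifnar2 lie above and those of Ifngr1 below the Yap1WT points.

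The type I receptor chains came first. Ifnar2 had 18.3, 14.5, 12.3 and 15.9 CPM (reads of the gene scaled to the library size with TMM factors) in Yap1WT replicates 1 to 4. In Yap1KO it had 22.6, 24.2, 26.9 and 28.1 CPM. Every Yap1KO library was above every Yap1WT library. The means were 15.3 ± 2.51 and 25.5 ± 2.50 CPM (SD, n = 4), a log2 fold change of 0.74 with a standard error of 0.15 and an adjusted p of 0.0195 by edgeR's quasi-likelihood test. DESeq2 gave an adjusted p of 0.000748 and limma-voom 0.0158. With single libraries left out, the log2 fold change of Ifnar2 stayed at 0.65 to 0.84, but its adjusted p rose to 0.0516 without Yap1WT replicate 2, 0.0637 without Yap1WT replicate 3, 0.0526 without Yap1KO replicate 3 and 0.0608 without Yap1KO replicate 4.

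Ifnar1, the chain to which TYK2 is attached, had 42.3, 37.7, 43.1 and 40.2 CPM in Yap1WT. In Yap1KO it had 48.5, 43.5, 44.9 and 48.5 CPM. Its groups did not overlap either, but they lay close together. The means of Ifnar1 were 40.8 ± 2.38 and 46.3 ± 2.53 CPM, with a log2 fold change of 0.18, a standard error of 0.09 and an adjusted p of 0.312, and the 95% interval ran from -0.02 to 0.39.

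For the interferon gamma receptor, Ifngr1 had 127.9, 126.6, 135.7 and 136.4 CPM in Yap1WT. In Yap1KO it had 99.0, 101.4, 106.8 and 102.7 CPM. The Yap1KO libraries were all below the Yap1WT libraries, and the spread within each group was small. The means of Ifngr1 were 131.6 ± 5.11 and 102.5 ± 3.26 CPM, a log2 fold change of -0.36 with a standard error of 0.08 and an adjusted p of 0.0273 (edgeR), 0.000887 (DESeq2) and 0.0263 (limma-voom). The log2 fold change of Ifngr1 stayed between -0.38 and -0.34 with any single library left out. Its adjusted p was then under 0.05 only without Yap1WT replicate 2 (0.0447) or Yap1KO replicate 2 (0.0470), and it was 0.0574, 0.0984 and 0.0638 without Yap1WT replicates 1, 3 and 4 and 0.0770, 0.0512 and 0.0709 without Yap1KO replicates 1, 3 and 4.

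Ifngr2, the second chain of that receptor and the one that carries JAK2, had 106.3, 82.6, 98.4 and 96.9 CPM in Yap1WT and 103.4, 78.5, 73.3 and 110.7 CPM in Yap1KO. The groups overlapped, and Yap1KO replicates 2 and 3 were the lowest of the 8 libraries. The log2 fold change of Ifngr2 was -0.07 with a standard error of 0.15 (adjusted p = 0.836 by edgeR, 95% interval -0.40 to 0.25).

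Of the type III receptor, Ifnlr1, whose protein is largely restricted to epithelia, had 18.1, 20.6, 16.5 and 14.3 CPM in Yap1WT. In Yap1KO it had 14.9, 11.7, 12.2 and 25.2 CPM. Replicates 1 to 3 of Yap1KO lay at or below the lower part of the Yap1WT range, while Yap1KO replicate 4 was the highest of all. The log2 fold change of Ifnlr1 was -0.13 with a standard error of 0.25 (adjusted p = 0.83 by edgeR, 95% interval -0.68 to 0.42), and it was -0.36 by limma-voom. Leaving out single libraries gave -0.42 (without Yap1KO replicate 4, adjusted p = 0.260) to -0.0037 (without Yap1KO replicate 2), and Ifnlr1 was called in none of these fits.

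Il10rb had 71.7, 86.2, 72.1 and 78.3 CPM in Yap1WT and 83.4, 77.3, 72.1 and 92.8 CPM in Yap1KO. The groups overlapped, although the gene begins 567 bp past the end of Ifnar2. Its log2 fold change was 0.08 with a standard error of 0.11 (adjusted p = 0.747 by edgeR, 95% interval -0.16 to 0.32).

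The kinase genes were both well expressed. Jak1 had 163.3, 165.4, 175.3 and 185.1 CPM in Yap1WT and 202.0, 161.2, 175.2 and 226.2 CPM in Yap1KO. Yap1KO replicates 1 and 4 were above the Yap1WT range and replicate 2 just below it. The log2 fold change of Jak1 was 0.15 with a standard error of 0.12 (adjusted p = 0.530 by edgeR, 95% interval -0.11 to 0.41). Tyk2 had 49.7, 48.4, 51.2 and 51.1 CPM in Yap1WT and 49.1, 51.8, 48.6 and 43.3 CPM in Yap1KO. Its groups overlapped, and Yap1KO replicate 4 was the lowest. The log2 fold change of Tyk2 was -0.05 with a standard error of 0.09 (adjusted p = 0.794 by edgeR, 95% interval -0.26 to 0.15).

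Socs1 was the least abundant member, with 92 to 347 reads per library. It had 2.47, 3.56, 2.21 and 3.92 CPM in Yap1WT and 5.24, 2.94, 4.54 and 8.24 CPM in Yap1KO. Yap1KO replicates 1, 3 and 4 were above every Yap1WT library and replicate 2 was within their range. The log2 fold change of Socs1 was 0.78 with a standard error of 0.36, as large a difference as that of Ifnar2 but with a wider interval of -0.01 to 1.58, and the adjusted p was 0.253 by edgeR. The log2 fold change was 0.51 by limma-voom. By edgeR it was 0.49 without Yap1KO replicate 4 and 0.98 without Yap1KO replicate 2, and all of these were short of the threshold.

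**Figure D2:**
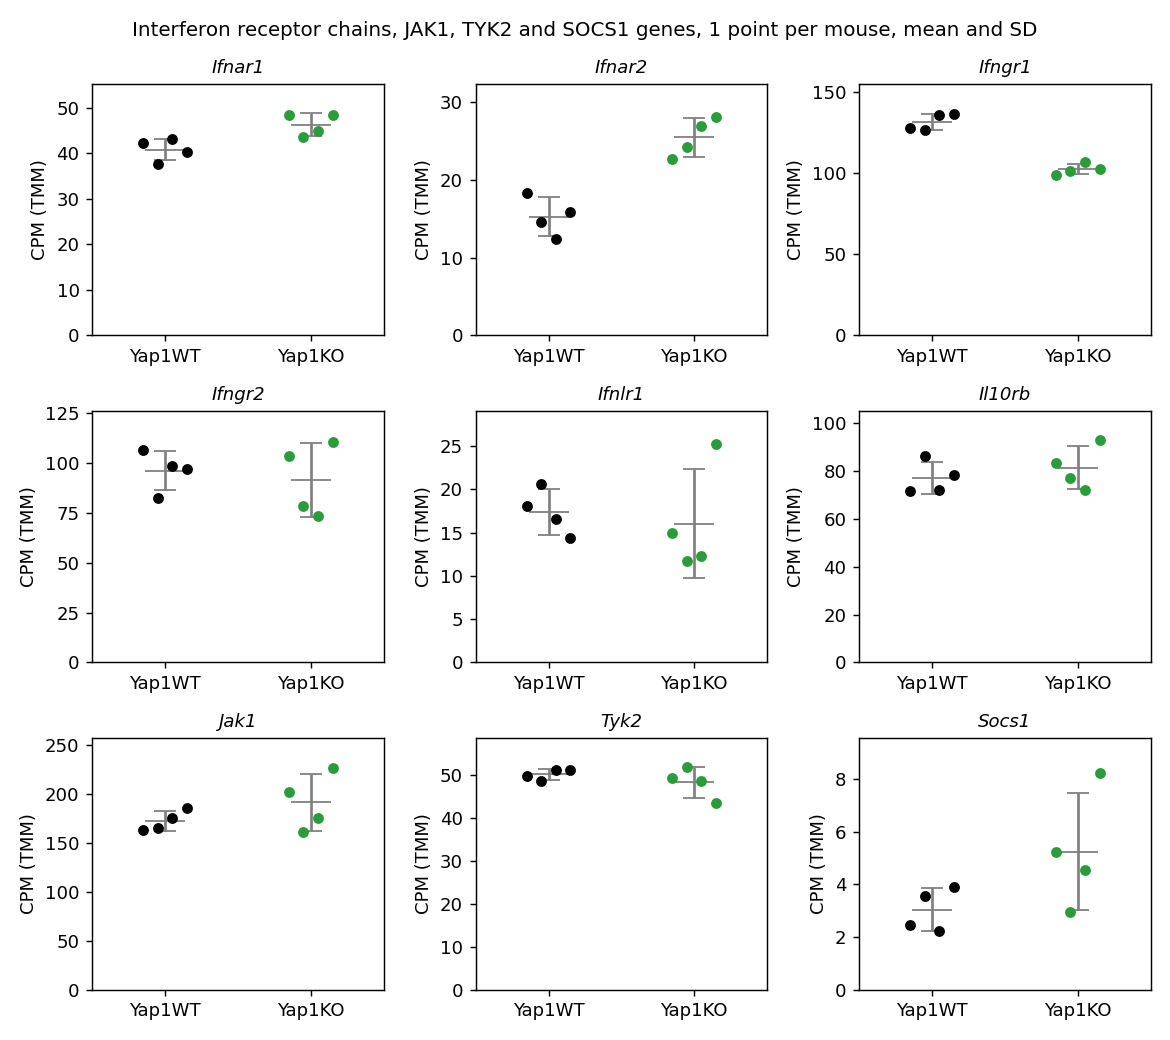
TMM-normalized CPM (y axis, from 0) of each gene in Yap1WT (black) and Yap1KO (green), with 1 point per mouse in the order of the replicate numbers and grey bars for the mean and SD of 4 mice. The groups are apart for Ifnar1, Ifnar2 and Ifngr1, and Yap1KO replicate 4 is the highest point in the panels of Ifnlr1, Jak1 and Socs1, among others.

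By count, 1 of the 9 members was higher and 1 was lower at an adjusted p under 0.05, beside 3.54% of the 13495 genes tested that were higher and 2.34% that were lower. With DESeq2 (10.7% of genes called in either direction) and limma-voom (7.08%) the counts of members were again 1 and 1. The groups did not overlap for 3 members, Ifnar1, Ifnar2 and Ifngr1, beside 13.2% of all genes. The first 2 were higher (7.19% of all genes) and Ifngr1 was lower (6.01%). At an unadjusted p under 0.05 by edgeR, which 20.4% of all genes reached, Ifnar2 and Ifngr1 were the only members. By DESeq2, Socs1 also had an unadjusted p of 0.0390 (adjusted p = 0.192), while limma-voom gave 0.142 (adjusted p = 0.386). With 9 genes, 2 calls are few to set against 5.88% of genes called in either direction. The median log2 fold change of the members was 0.08 and that of all genes tested -0.01. As replicates are separate mice, the p-values weigh the group difference against the variation among these 8 mice, which edgeR moderates over all genes.

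The mouse numbers in the labels fall into 2 series, each with 2 mice of either group, so the direction could be read within each. Ifnar2 was higher in Yap1KO in both, with a log2 ratio of the mean CPM of 0.51 in the first and 0.97 in the second. Ifngr1 was lower in both, at -0.34 and -0.38. Ifnlr1 pointed in opposite directions, at -0.54 and 0.28, and the second value includes Yap1KO replicate 4. Socs1 was at 0.44 and 1.06.

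Partner genes were then compared within each library, where a scaling by library size cancels but the quantile normalization of the deposited values does not. In Yap1WT the log2 RPKM of Ifnar1 minus that of Ifnar2 was 0.09, 0.23, 0.56 and 0.15. In Yap1KO it was -0.07, -0.26, -0.39 and -0.37. On this scale Ifnar1 was above Ifnar2 in every Yap1WT library and below it in every Yap1KO library. The mean moved from 0.26 ± 0.21 to -0.27 ± 0.15 (SD, n = 4), with a two-sided exact permutation p of 0.0286, the smallest that 4 against 4 libraries can give, and 0.114 adjusted over the 4 pairs compared. The sign within a group depends on the gene lengths behind the RPKM values. On log2 CPM, which is not scaled to length, Ifnar1 minus Ifnar2 was above 0 in all 8 libraries, at 1.20 to 1.80 in Yap1WT and 0.73 to 1.10 in Yap1KO. The shift between the groups was alike on both scales, at -0.53 and -0.56. This difference is not separate evidence for the call of Ifnar2, as it rests on the same reads.

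The Ifngr1 minus Ifngr2 difference was 0.45 ± 0.14 in Yap1WT and 0.17 ± 0.33 in Yap1KO, and its groups overlapped (exact permutation p = 0.229, adjusted p = 0.257). Ifnlr1 minus Il10rb was -3.25 ± 0.18 and -3.55 ± 0.42 (exact permutation p = 0.257, adjusted p = 0.257). Jak1 minus Tyk2 was 1.64 ± 0.04 and 1.87 ± 0.31 (exact permutation p = 0.200, adjusted p = 0.257). None of the 4 pairs passed after adjustment. The smallest exact permutation p that 4 against 4 libraries can give is 0.0286. A pair that stands apart alone can therefore not have an adjusted p below 0.114. The type I chains could not pass unless other pairs stood apart as well, so nothing is concluded from the lack of a pass. Yap1WT libraries lay closer together than Yap1KO libraries for all pairs except the type I chains.

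**Figure D3:**
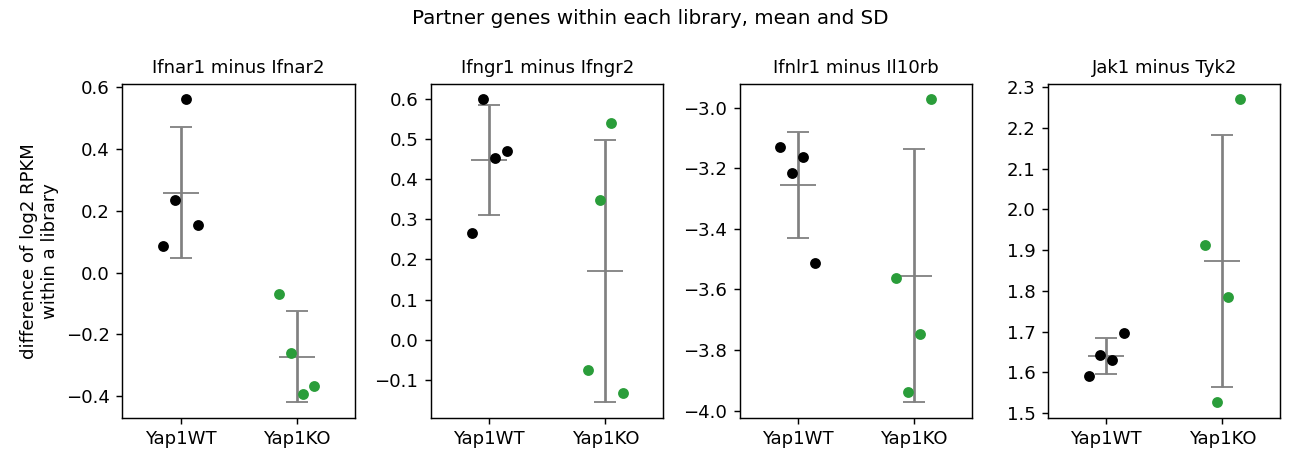
Difference of the deposited log2 RPKM of 2 partner genes within each library (y axes, scaled separately and not from 0), for Yap1WT (black) and Yap1KO (green), with 1 point per mouse and grey bars for the mean and SD of 4 mice. Only for Ifnar1 minus Ifnar2 do the groups stand apart, above 0 in Yap1WT and below 0 in Yap1KO.

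The likeness of other genes to the 2 that changed was described by the correlation of log2 CPM over the 8 libraries and covered the 10843 genes that averaged 5 CPM or more. Closest to Ifnar2 were Msrb3 (Pearson r = 0.982), which encodes a methionine sulfoxide reductase, Ier5l (r = 0.979) and Lipe (r = 0.979), the gene of hormone-sensitive lipase. Closest to Ifngr1 were Fhl1 (r = 0.991), which encodes a LIM domain protein, R3hdm4 (r = 0.989) and Gal3st1 (r = 0.988), the gene of a sulfotransferase. None of these belongs to the interferon lists. Between the members, the lowest correlation was that of Ifnar2 and Ifngr1 (r = -0.888) and the highest that of Jak1 and Socs1 (r = 0.853). The points of each correlation share the 8 libraries and the same 2 groups, so a gene that differs between the groups correlates with any other that does.

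The ligands were almost absent from these libraries. Of 18 type I interferon genes 14 had no read in any library, and none of the 21 ligand genes passed the filter. Ifne, an interferon of epithelia, had 75, 35, 29 and 8 reads in Yap1WT and 10, 9, 2 and 0 in Yap1KO, so it was seen more in Yap1WT, at under 1 CPM throughout. Ifnb1 had 5 reads in Yap1KO replicate 2 alone, and Ifnk and Ifnz had at most 9 in a library. Ifng had 6 reads in Yap1WT replicate 1 alone. Of the type III ligands, Ifnl2 had 13 and Ifnl3 18 reads, all in Yap1KO replicate 3, and because these genes are near-identical copies their reads may be split between them. A count of 0 allows 3 reads, which is 0.0392 CPM in the deepest library and 0.166 CPM in Yap1KO replicate 4, and such limits cover counting error only. Ligand made by cells outside the EpCAM+ gate was not measured here.

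Beside the members, 2 genes of the IL-10 family list passed the filter. Il22ra1, which joins Il10rb in the IL-22 receptor, had a mean of 17.8 ± 1.14 CPM in Yap1WT and 26.0 ± 11.8 CPM in Yap1KO (log2 fold change 0.54, adjusted p = 0.334 by edgeR). Il20rb had 1.70 ± 0.226 and 2.82 ± 0.443 CPM (log2 fold change 0.73, adjusted p = 0.217 by edgeR). Neither was called, and the other 8 genes of that list were too low to test.

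Of the other JAK kinases, Jak2, the partner of JAK1 on the interferon gamma receptor, had 75.1 ± 6.22 CPM in Yap1WT and 91.8 ± 14.0 CPM in Yap1KO (log2 fold change 0.29, adjusted p = 0.217 by edgeR). Jak3 had 32.9 ± 5.40 and 43.7 ± 8.49 CPM (log2 fold change 0.41, adjusted p = 0.195 by edgeR). For both kinases the groups overlapped and no tool called them.

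Downstream of the kinases, Stat2, a target of the receptor-bound kinases, rose from 24.7 ± 7.96 to 80.9 ± 13.8 CPM (log2 fold change 1.71, adjusted p = 0.00156 by edgeR). Irf9, which encodes the DNA-binding partner of STAT2, rose from 25.8 ± 3.16 to 71.0 ± 13.8 CPM (1.46, adjusted p = 0.000638 by edgeR). For both genes every Yap1KO library was above every Yap1WT library. No other STAT gene described here was called by edgeR. Stat3, the factor downstream of gp130, was at 200.3 ± 10.3 and 215.0 ± 21.7 CPM (0.10, adjusted p = 0.629 by edgeR). Stat5a stood at -0.59 (adjusted p = 0.0704 by edgeR, 0.0199 by DESeq2), Stat5b at -0.37 (adjusted p = 0.0978 by edgeR) and Stat6 at -0.23 (adjusted p = 0.241 by edgeR), and for Stat5a and Stat5b every Yap1KO library was below every Yap1WT library. Stat4 was near 1 CPM or below on average (0.54, adjusted p = 0.776 by edgeR).

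Among 6 other interferon regulatory factors tested, Irf7, which is induced by type I interferon, rose from 11.5 ± 4.23 to 193.7 ± 67.4 CPM (log2 fold change 4.07, adjusted p = 0.000209 by edgeR), and Irf8 rose from 18.5 ± 3.99 to 31.9 ± 5.39 CPM (0.79, adjusted p = 0.0346). No other member of that list was called, and its median was 0.08. Leaving out any single library other than Yap1WT replicate 4 or Yap1KO replicate 2 left 1 call in that list. Of 9 other inhibitors of interferon receptor signalling, 1 rose. This was Usp18, whose product binds IFNAR2 and displaces JAK1, and it went from 1.07 ± 0.655 to 36.6 ± 13.1 CPM (log2 fold change 5.03, adjusted p = 0.000288 by edgeR). The list's median was -0.08, and 3 of its 9 genes were above 0. The tyrosine phosphatase and PIAS genes lay between -0.45 (Ptpn6) and 0.11 (Pias4), and none was called.

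None of 7 other SOCS genes was called, with a median log2 fold change of -0.20. Socs3 was the most abundant at 301.2 ± 34.6 CPM in Yap1WT and 230.9 ± 18.0 CPM in Yap1KO (log2 fold change -0.38, adjusted p = 0.0784 by edgeR, 0.0167 by DESeq2), and Socs2 had 33.0 ± 4.66 and 34.9 ± 4.91 CPM (0.08, adjusted p = 0.810 by edgeR). The Socs3 groups did not overlap, with Yap1KO below Yap1WT, while the mean of Socs1 was above.

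Of the 28 type I and III response genes 25 rose and none fell, beside 3.54% of all genes tested higher and 2.34% lower. The list's median log2 fold change was 3.13. Mx1, a GTPase that blocks virus replication, rose from 3.30 ± 0.873 to 43.0 ± 10.4 CPM (log2 fold change 3.69, adjusted p = 0.000105 by edgeR). Oas3 (5.93), Ifit1 (5.48) and Isg15 (5.27) each had an adjusted p of 0.000174. The 3 that did not pass were Ifit2, Eif2ak2 and Epsti1, at log2 fold changes of 1.73, 0.76 and 0.42. The study's own results name Mx1, Irf7 and Irf9 from these samples, so they are not an independent choice. This list and the next were also chosen with earlier results of these data known, so their counts of calls are not independent support.

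Of 21 genes known for induction by interferon gamma, 17 could be tested. Of these, 10 rose while none fell, beside 3.54% of all genes tested higher and 2.34% lower, and the list's median log2 fold change was 1.76. The smallest p were those of Gbp3 (3.71, adjusted p = 0.000174 by edgeR), a guanylate-binding protein, Tap1 (2.07, adjusted p = 0.000929), a peptide transporter of MHC class I, Psmb8 (1.91, adjusted p = 0.00131), an immunoproteasome subunit, and Irgm1 (2.29, adjusted p = 0.00134). These 4 genes also respond to type I interferon. The MHC class II genes H2-Aa (0.26), H2-Ab1 (0.50), H2-Eb1 (0.64) and Cd74 (1.01), the latter the invariant chain, did not pass, nor did Icam1 (-0.48), and Ciita, Cxcl9 and Ido1 were above 0.5 CPM in too few libraries to be tested. Ido1 had 19, 11, 3 and 0 reads in Yap1WT and 342, 30, 303 and 168 in Yap1KO, so every Yap1KO library was above every Yap1WT library. With a filter at 4 libraries the list had 11 called genes. Such a filter can admit a gene only through the 4 libraries of the group where it is high, so the added call is not further support.

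**Figure D4:**
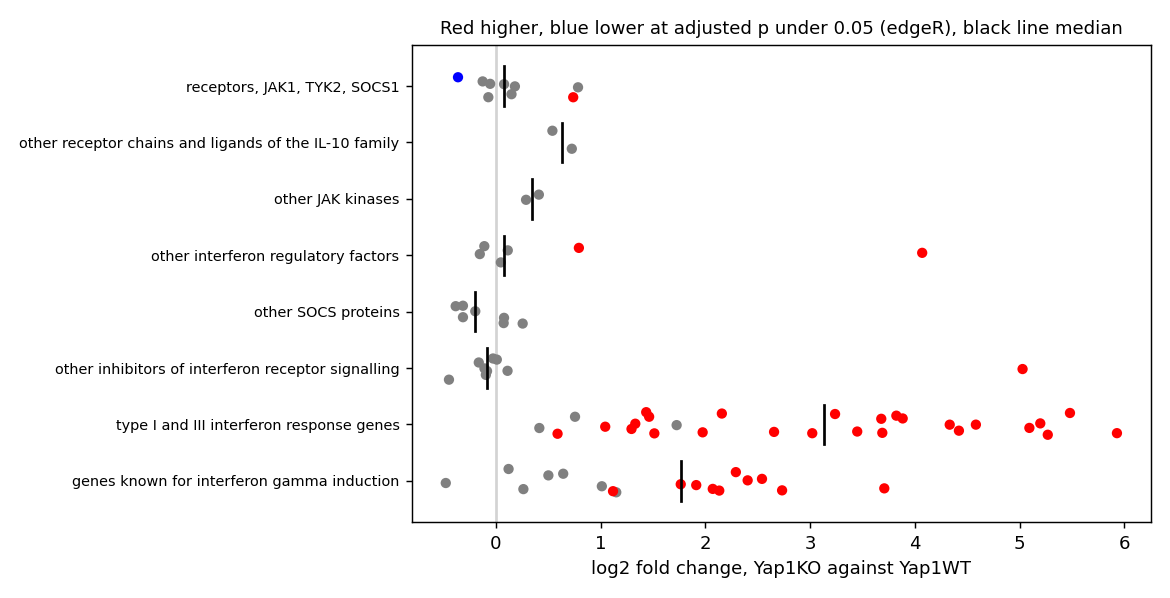
Log2 fold change (x axis, positive when higher in Yap1KO) of the tested genes of each list (rows), with called genes in red when higher and blue when lower at an adjusted p under 0.05 (edgeR), other genes in grey, and a black line at the list's median. The members centre near 0, while the type I and III response genes have a median of 3.13 with 25 of 28 in red.

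Several features of the libraries bear on these values. The libraries held 18229945 to 77483047 counts. Yap1KO replicate 4 was the shallowest and lay far from the other 7 in a principal component analysis over 500 variable genes, with a first component of 66.8 where theirs ran from -17.9 to 1.34. Yap1 itself, the targeted gene, was at 73.9 ± 6.41 CPM in Yap1WT and 26.0 ± 3.76 CPM in Yap1KO (log2 fold change -1.51, adjusted p = 0.000209 by edgeR). Reads from Yap1 exons that Cre does not remove still enter this count. Without Yap1KO replicate 4 neither Ifnar2 nor Ifngr1 was called, at the adjusted p values given above. In bulk RNA, fewer cells of a type and less RNA per cell cannot be told apart.

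Markers of the sorted cell type were high, at 9560 to 12327 summed CPM over 7 epithelial genes, led by Krt8 and Krt19. Foveolar markers, led by Gkn1 and Gkn2, reached 29132 to 60835 summed CPM in Yap1WT against 20875 to 37037 in Yap1KO, with all 4 genes lower in Yap1KO on average (median log2 fold change -0.64). None of the 4 was called by edgeR, 3 had an unadjusted p under 0.05, and DESeq2 called 2 lower. Endothelial markers had a summed level between 164 and 590 CPM in Yap1WT and between 511 and 1042 CPM in Yap1KO. All 8 endothelial genes were higher in Yap1KO on average (median log2 fold change 1.24, Plvap 1.39 and Pecam1 1.22), none was called by edgeR, 7 had an unadjusted p under 0.05, and DESeq2 called 4 and limma-voom 6. Fibroblast markers, led by Col3a1 and Col1a1, summed to 85.7 to 710 and 321 to 1068 CPM, with 7 of 8 higher on average (median 1.04) and none called by edgeR, DESeq2 or limma-voom or at an unadjusted p under 0.05. These cells express type I and interferon gamma receptors as well, and their part in the values of Ifnar2, Ifngr1 and the response genes was not tested.

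Markers of T and NK cells were near 0, at 0 to 0.779 summed CPM over 13 genes in any library, with Cd8a and Ncr1 at 0 in all and Il2rb and Cd4 the most abundant. Markers of B and plasma cells, led by Jchain and Cd79b, summed to at most 2.97 CPM. Macrophage and dendritic cell markers had a summed level between 47.8 and 91.9 CPM in Yap1WT and between 41.4 and 73.4 CPM in Yap1KO. Of these, 4 genes were tested and Cd68 rose (log2 fold change 1.06, adjusted p = 0.0468 by edgeR), while Cd14 stood at -0.31 and Ptprc, the common leukocyte gene, at -1.17 (adjusted p = 0.151 by edgeR). Neutrophil and mast cell markers, nearly all of it Kit, summed to 27.4 to 34.8 and 35 to 46.6 CPM, and erythroid markers, led by Hba-a1 and Hbb-bs, to 4.46 to 40.4 and 1.38 to 15 CPM. Among the 7 epithelial markers the median log2 fold change was -0.02, and 3 were above 0. Epcam, the sorting marker, rose by 0.76 on the log2 scale (adjusted p = 0.00188 by edgeR) and Cldn4 by 2.54 (adjusted p = 0.00472), while Krt19 stood at -0.42 (adjusted p = 0.100 by edgeR, 0.00941 by DESeq2) with groups that did not overlap. The part of Epcam in the other differences was not tested.

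**Figure D5:**
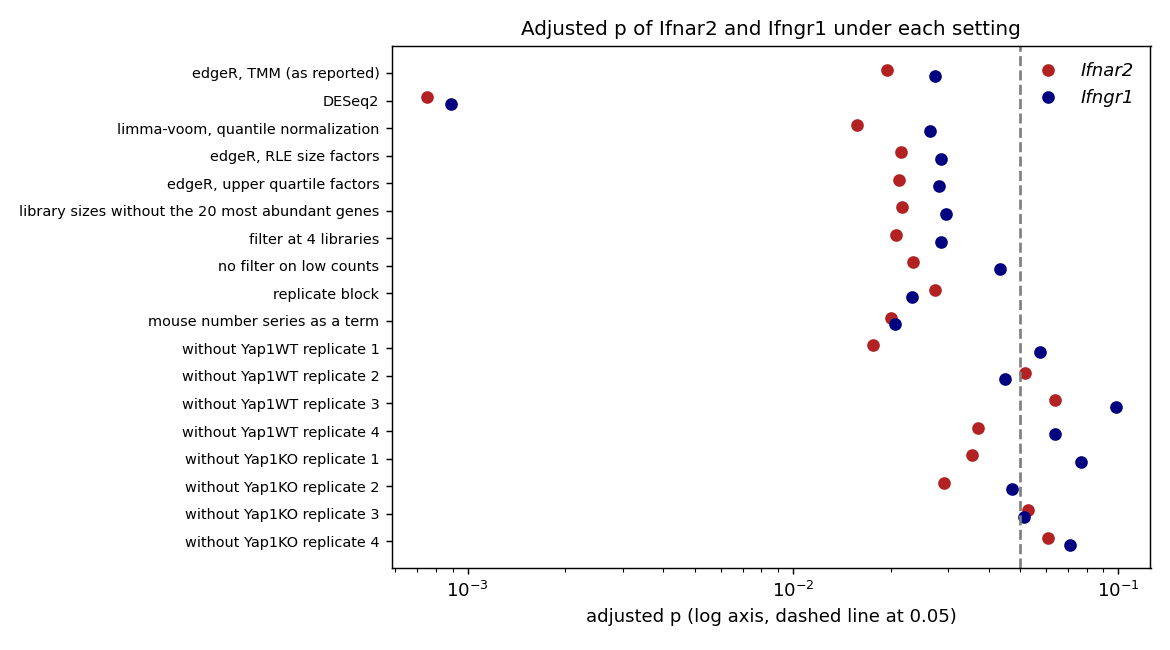
Adjusted p (x axis, log scale, dashed line at 0.05) of Ifnar2 (red) and Ifngr1 (blue) under each setting (rows), from the fit as reported at the top through other tools, scalings and filters to the 8 fits that leave out 1 library. Both genes stay left of the line in all 9 settings that keep the 8 libraries, with Ifngr1 at most at 0.0433, and cross it in 4 (Ifnar2) and 6 (Ifngr1) of the 8 fits without a library.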

How the data were processed

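The authors made the deposited counts with Subread and featureCounts, from 80 bp paired-end reads aligned to GRCm38/mm10 and RefSeq genes, as whole numbers without normalization. The deposited log2 values are log2 RPKM that the authors made with voom and quantile normalization. Every library has the same highest value, 16.43.

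Samples were matched to 8 columns of the count table by the number in their labels, read as a mouse number, and 6 further columns were not used. Of 27179 entries, 35 without a symbol were named from RefSeq (GRCm38.p6), 1277 others (0.552% to 0.789% of a library's counts) were left out, and so were 762 pseudogenes. Genes above 0.5 CPM in at least 6 libraries were tested with edgeR 4.0.16 in R 4.3.3 (quasi-likelihood F test after TMM scaling, with p adjusted by Benjamini-Hochberg). The test was first checked on simulated counts with planted changes larger than those of Ifnar2 and Ifngr1, so the check does not bear on changes of their size. The common biological coefficient of variation was 0.283. Correlations used a prior count of 2. Alternatives used DESeq2 1.42.0 and limma 3.58.1, other scaling factors and filters, a replicate block, a term for the mouse number series, and each library left out. Plots were drawn with matplotlib 3.10.9.

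Named genes were all 9 members, up to 4 called genes per direction of each list with the smallest p (the 2 most abundant where none was called), every ligand with a count, the 2 most abundant genes of each marker list, Yap1, and the 3 genes most like each called member. The uncalled response genes named, Stat3, Stat4, Stat5a, Stat5b, Stat6, Ptpn6, Pias4, Ido1, Cldn4, Cd68, Epcam, Cd8a and Ncr1 were chosen after their values were seen. The members and lists were chosen with earlier results of these data known. Organoids and staining were not used here. The result of 1 gene, and the counts of the STAT list, are not reported here.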

Additional observations from a re-analysis of the deposited data

How the results depend on the processing

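Of the members, Ifnar2 and Ifngr1 were called in all 9 alternative settings that kept 8 libraries (adjusted p 0.000748 to 0.0274 and 0.000887 to 0.0433), and no other member was called in any setting. Leaving out single libraries gave 0 to 1 members higher and 0 to 1 lower, and log2 fold changes of 0.65 to 0.84 for Ifnar2 and -0.38 to -0.34 for Ifngr1, with adjusted p of 0.0177 to 0.0637 and 0.0447 to 0.0984. Fewer libraries enter those fits, but the cause of each lost call was not tested. Ifngr2, which was not called, turned from -0.07 to 0.024 without Yap1KO replicate 3, the upper end of a range that began at -0.18. Over all genes, leaving out single libraries gave 241 to 481 higher and 156 to 292 lower, against 478 and 316 as reported, 1 to 2 of the other interferon regulatory factors and 24 to 26 of the type I and III response genes. The lowest counts of all genes were those without Yap1WT replicate 3. DESeq2 called 858 higher and 587 lower and 1 of the other SOCS genes, Socs3. The cause was not tested.

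A term for the mouse number series gave 598 genes higher and 451 lower, against 478 and 316 as reported. The replicate numbers gave 756 genes higher and 553 lower as a replicate block. Each of these fits kept the 2 member calls. The deviations of same-numbered libraries correlated at 0.0360, 0.347, 0.0517 and 0.148 over genes, not all above 0.1, so the numbers were not taken as pairs. For the partner genes, sign flips of same-numbered libraries cannot give a p below 0.125, and no pair passed after adjustment under any alternative. With so few libraries a pair that stands apart alone cannot pass, so nothing is concluded from this. Depth limits the statements on Socs1 (92 to 347 reads) and the ligands.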
